A study of Rattus norvegicus with 6 samples.

Results

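The genes described here are those of glycolysis and of the response to low oxygen, chosen as a list of 37 symbols and matched exactly to the gene names of a deposited expression table. They were measured in 6 rat mammary tumors. Of the 37 symbols 36 were found, on 38 of the 32545 rows, because Pkm and Pfkfb4 each had a pair of rows, which were kept apart. Egln1 was not analysed here. The list was divided into 22 glycolysis symbols (glucose uptake, the enzymes from hexokinase to lactate dehydrogenase, and lactate transport) and 15 hypoxia-induced symbols, with Hif1a counted among the latter.

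The tumors came from female Sprague-Dawley rats given N-methyl-N-nitrosourea (MNU), an alkylating carcinogen that induces mammary tumors, by intraperitoneal injection of 50 mg/kg at 21 days of age. All 6 tumors came from MNU-treated rats, and normal mammary gland was not analysed here. Gavage began 1 week after MNU and was given 5 times a week for 10 weeks, with 100 µL corn oil alone in the vehicle group and with diallyl trisulfide (DATS), a garlic organosulfur compound, at 50 mg/kg in corn oil in the other. Each group had 3 tumors, and the labels do not say whether these came from separate rats, so the tests measure the spread between these tumors, part of which may be technical.

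Glycolysis splits glucose into pyruvate in the cytosol, and lactate dehydrogenase turns pyruvate into lactate, which monocarboxylate transporters move out of the cell. Under low oxygen the prolyl hydroxylases that mark the alpha subunit of hypoxia-inducible factor 1 (HIF-1) for destruction lose activity, and HIF-1 then induces glucose transport, most glycolytic enzymes, angiogenic factors and carbonic anhydrases. Solid tumors often hold poorly perfused regions in which this program is active, and many tumor cells also keep glycolysis high in the presence of oxygen.

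Between 13531587 and 16868678 reads were recovered for a tumor. The labelled tissue was checked with luminal epithelial markers, of which 11 of 11 were above 0 in every tumor. The epithelial adhesion gene Epcam was at 463 to 704 FPKM (fragments per kilobase of gene, scaled for each tumor by the authors). The summed luminal level was 2037 to 2674 FPKM in vehicle and 2793 to 4401 FPKM in DATS tumors. Not every marker of that list followed the sum. Esr1 was at 10.7, 4.57 and 7.37 FPKM in vehicle tumors 1, 2 and 3 and at 3.23, 4.67 and 4.35 FPKM in DATS tumors 1, 2 and 3. Skeletal muscle markers summed to 1887 FPKM in vehicle tumor 1 and to between 17.9 and 24.5 FPKM in the other tumors, with Ckm, Myl1 and Tnnc2 at 0 in at least 1 of them. Markers of T and NK cells and of macrophages summed highest in vehicle tumor 2. In bulk tumor RNA, fewer cells of a type and less RNA per cell cannot be told apart.

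No glycolysis or hypoxia-induced gene passed the test of DATS against vehicle, and the highest and lowest levels often fell in the same 2 tumors, vehicle tumor 2 and DATS tumor 1. All 14 hypoxia-induced rows were highest in vehicle tumor 2, a tumor that was highest for 21.0% of all 13631 genes tested and lowest for 19.6%. The level there was 1.07 (Pdk1) to 3.03 (Egln3) times that of the next tumor, and over 1.5 times for 6 rows, Hif1a, Egln3, Car9, Adm, Bnip3 and Ero1l. DATS tumor 1 was the lowest tumor for 10 of the 14 rows, against 16.8% of all genes tested. Among the 22 glycolysis rows tested, 13 were highest in vehicle tumor 2, by 1.01 (Ldha and Eno1) to 1.65 times (Hk2), and 11 were lowest in DATS tumor 1. The median ratio of the highest to the lowest tumor was 3.32 for the hypoxia-induced rows, 2.68 for the glycolysis rows and 1.86 for the 13298 tested genes above 0 in every tumor.

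**Figure D1:**
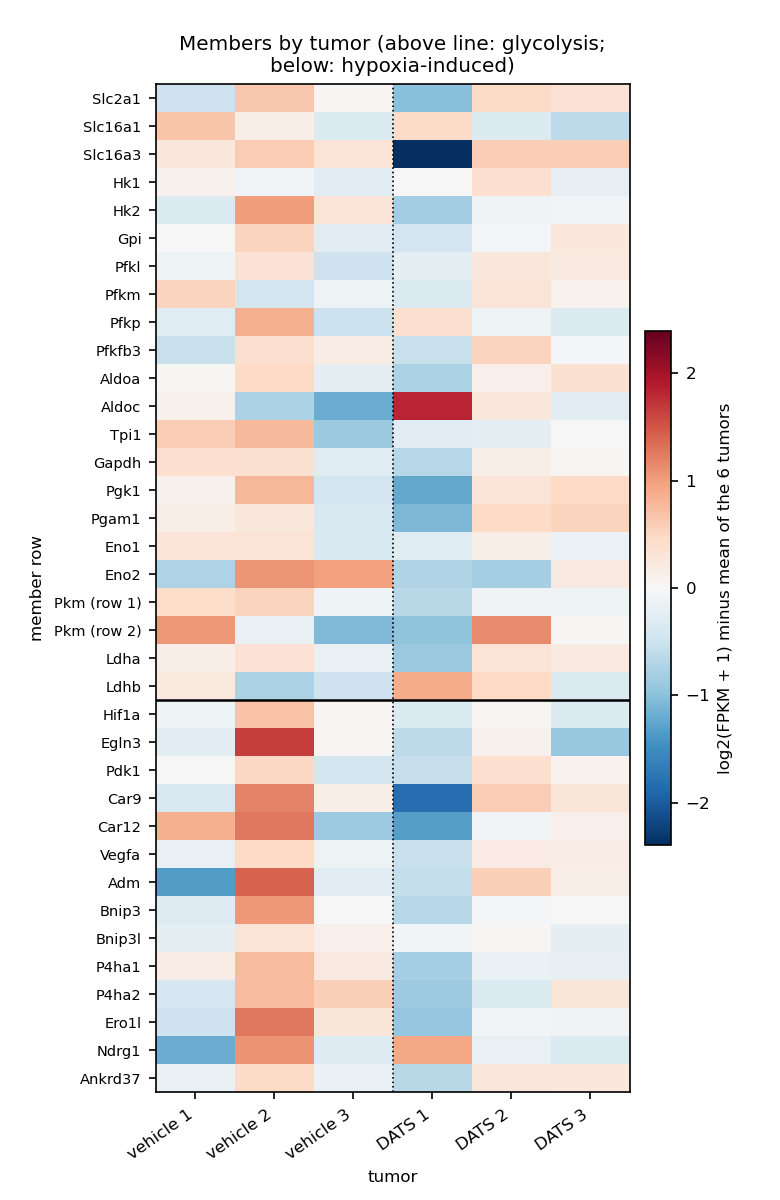
Level of each tested member row in each tumor, as log2(FPKM + 1) minus the mean of the 6 tumors (color scale), with glycolysis rows above the black line and hypoxia-induced rows below it. The column of vehicle tumor 2 holds the highest value of all 14 hypoxia-induced rows, and Aldoc, Ldhb and Ndrg1 stand above their mean in DATS tumor 1 where most other rows stand below.

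Between the groups, limma on log2(FPKM + 1) called 0 of the 36 member rows with a mean of at least 1 FPKM, at an adjusted p under 0.05 over all 13631 genes (0% of all genes were called). At an unadjusted p under 0.05 there was 1 member row, P4ha1, where 5.85% of all genes passed, 2.11% with DATS lower, and limma-voom run on recovered reads gave the same number. A positive difference means a higher mean of log2(FPKM + 1) in DATS tumors, a scale that shrinks differences of low genes. The 95% confidence intervals of these differences included 0 for 35 of the 36 rows, with a median half-width of 0.92. The 2 rows below the filter were both Pfkfb4, which encodes a bifunctional enzyme that sets the level of fructose-2,6-bisphosphate. They had 0 to 17 and 1 to 7 recovered reads per tumor and were not tested.

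Hypoxia-induced rows lay lower in DATS tumors for 12 of 14, with a median log2 difference of -0.46, and glycolysis rows for 16 of 22, with a median of -0.18. Over all genes tested 50.8% lay lower. An alternative chosen after seeing the data left out both vehicle tumor 2 and DATS tumor 1. Then 5 of 14 hypoxia-induced rows and 5 of 22 glycolysis rows lay lower, with medians of 0.08 and 0.21. For a row highest in vehicle tumor 2 and lowest in DATS tumor 1, leaving out both must raise the difference. For such rows the direction of this shift was therefore set by the choice of tumors. Not every row was of this kind. Of the hypoxia-induced rows 14 of 14 were highest in vehicle tumor 2 and 10 of 14 lowest in DATS tumor 1. Of the glycolysis rows 13 of 22 and 11 of 22 were. Leaving out DATS tumor 1 alone gave 9 of 14 and 8 of 22 lower, with medians of -0.22 and 0.17. Leaving out vehicle tumor 2 alone gave 9 of 14 and 10 of 22, with medians of -0.14 and 0.02. The same limit holds for these single removals. Without DATS tumor 1 the difference of any row lowest there must rise. Without vehicle tumor 2 that of any row highest there must rise.

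**Figure D2:**
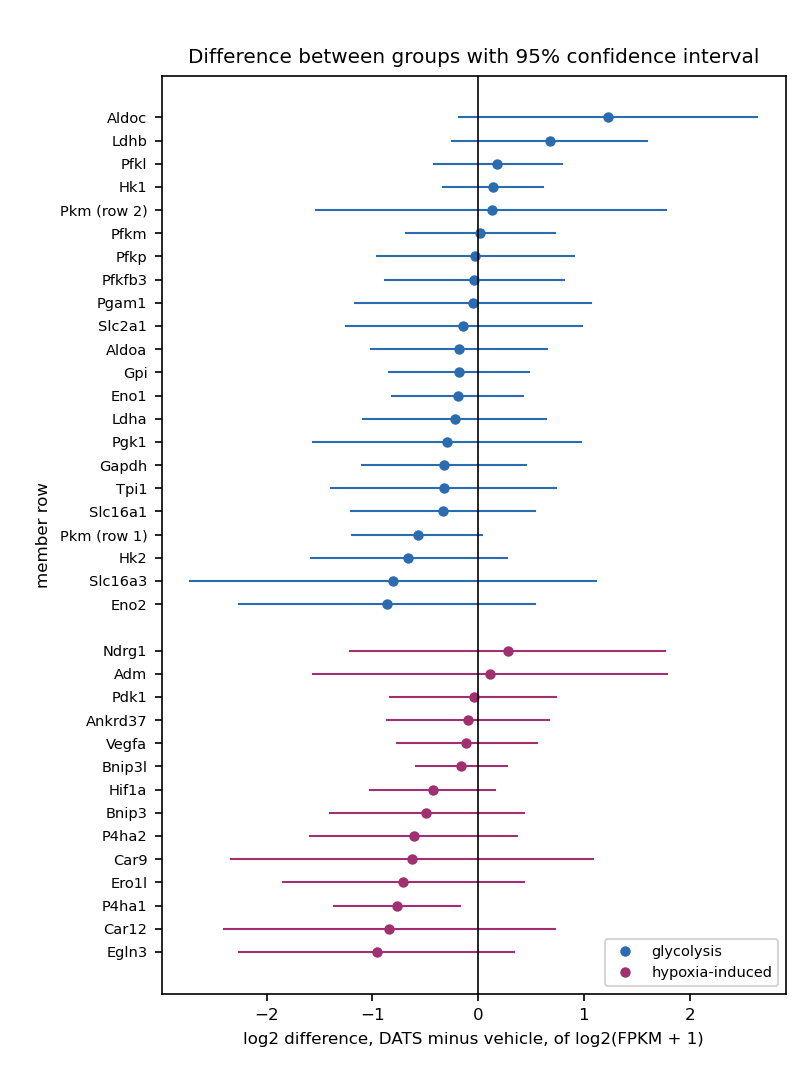
Log2 difference (DATS minus vehicle, of log2(FPKM + 1)) of the 36 tested member rows with its 95% confidence interval from limma, with 3 tumors in each group. The interval of P4ha1, -1.36 to -0.17, is the one that leaves out 0.

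The promoters of the 4 members that follow are shown because P4ha1 was the member whose groups did not overlap, P4ha2 encodes its partner isoform, Aldoc had the largest difference of all members and Slc16a3 stood furthest below the other tumors in DATS tumor 1. Each is the 250 bases before the start of transcription in RefSeq (build GRCr8), 5′ to 3′ on the gene's strand. Capitals mark the core of the hypoxia response element that HIF-1 binds, searched as ACGTG or GCGTG on both strands.
P4ha1, chr20:27844796-27845045 (+ strand): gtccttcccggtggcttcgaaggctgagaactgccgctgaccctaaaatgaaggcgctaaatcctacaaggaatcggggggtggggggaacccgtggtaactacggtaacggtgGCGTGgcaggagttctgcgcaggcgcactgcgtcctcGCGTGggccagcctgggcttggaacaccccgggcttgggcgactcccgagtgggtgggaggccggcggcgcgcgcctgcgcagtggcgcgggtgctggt
P4ha2, chr10:38743644-38743893 (+ strand): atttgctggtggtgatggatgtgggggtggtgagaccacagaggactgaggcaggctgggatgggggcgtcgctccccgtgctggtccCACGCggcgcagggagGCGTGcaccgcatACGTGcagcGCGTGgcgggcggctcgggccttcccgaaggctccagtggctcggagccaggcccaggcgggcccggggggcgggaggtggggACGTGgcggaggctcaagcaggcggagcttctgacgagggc
Aldoc, chr10:63715294-63715543 (+ strand): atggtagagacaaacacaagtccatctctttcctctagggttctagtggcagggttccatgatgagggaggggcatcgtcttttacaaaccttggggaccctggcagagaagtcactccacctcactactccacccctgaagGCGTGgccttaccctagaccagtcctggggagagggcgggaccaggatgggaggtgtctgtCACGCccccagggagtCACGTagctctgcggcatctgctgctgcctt
Slc16a3, chr10:106712078-106712327 (+ strand): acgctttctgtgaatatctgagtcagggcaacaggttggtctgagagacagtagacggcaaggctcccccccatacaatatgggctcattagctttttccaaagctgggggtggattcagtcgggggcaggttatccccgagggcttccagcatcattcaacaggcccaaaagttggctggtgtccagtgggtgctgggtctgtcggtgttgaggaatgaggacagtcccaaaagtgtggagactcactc
The core was found 2 times before P4ha1, 5 times before P4ha2 and 3 times before Aldoc, and not in this window before Slc16a3. Promoter entries matched 32 of the 36 members found. At least 1 core lay at 6 of 12 starts of hypoxia-induced members and at 16 of 25 starts of glycolysis members, or 50.0% and 64.0%, against 36.7% of all 33469 starts and 40.8% of those of protein-coding genes. The core overlaps the E-box CACGTG, which held 12 of the 51 matches at member starts, each site being counted on both strands. These matches are letters in a sequence and not measured binding.

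Hif1a encodes the oxygen-regulated alpha subunit of HIF-1, whose activity is set mainly by the stability of the protein. Its transcript was at 26.2, 46.4 and 29.4 FPKM in vehicle tumors 1, 2 and 3 and at 22, 29.1 and 22.4 FPKM in the DATS group, with values given in this order of tumors throughout. Vehicle tumor 2 stood above the rest and the groups overlapped (log2 difference -0.43 ± 0.24, SE; limma adjusted p = 0.838). Without vehicle tumor 2 the difference was -0.19. Egln3, a prolyl hydroxylase that acts on HIF alpha subunits and is itself induced by HIF, was at 19.7, 77.0 and 23.9 FPKM in vehicle and at 14.8, 25.4 and 12.1 FPKM in DATS tumors. Its level in vehicle tumor 2 was 3.03 times that of the next tumor, DATS tumor 2. The difference was -0.96 ± 0.54 (SE, adjusted p = 0.831), the largest of the hypoxia-induced rows, and ranged from -1.32 to -0.36 as each tumor was left out.

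P4ha1 and P4ha2 encode catalytic subunits of collagen prolyl 4-hydroxylase, which stabilizes the collagen triple helix. P4ha1 was at 53.2, 80.4 and 54.7 FPKM in vehicle and at 26.7, 41.9 and 40.9 FPKM in DATS tumors. Every DATS tumor lay below every vehicle tumor, and this was the only member row of 36 whose groups did not overlap, where 5.5% of all genes tested had DATS tumors wholly below and 12.2% did not overlap in either direction. The group means were 62.8 ± 15.3 and 36.5 ± 8.48 FPKM (SD, n = 3), a log2 difference of -0.77 ± 0.25 (SE, limma unadjusted p = 0.0189, adjusted p = 0.819). P4ha1 was not called in any alternative run, and with both vehicle tumor 2 and DATS tumor 1 left out its difference was -0.37 ± 0.14.

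P4ha2 was at 15.9, 36.8 and 32.4 FPKM in vehicle and at 11.2, 16.8 and 26.5 FPKM in DATS tumors. The groups overlapped, since DATS tumors 2 and 3 lay above vehicle tumor 1 (difference -0.61 ± 0.41, SE, adjusted p = 0.851). It ranged from -0.97 (without vehicle tumor 1) to -0.33 (without DATS tumor 1), and was -0.10 without both vehicle tumor 2 and DATS tumor 1. Ero1l, which encodes an oxidase that forms disulfide bonds in the endoplasmic reticulum, was at 10.1, 36.3 and 18.1 FPKM in vehicle and at 7.23, 13.9 and 13.7 FPKM in DATS tumors. It was highest in vehicle tumor 2, at 2.01 times the next tumor, and lowest in DATS tumor 1 (difference -0.71 ± 0.47, SE, adjusted p = 0.851). Without those 2 tumors its difference was 0.03. Fibroblast markers, collagen genes among them, summed to 1032, 1744 and 1541 FPKM in vehicle and to 940, 1105 and 1576 FPKM in DATS tumors, also highest in vehicle tumor 2 and lowest in DATS tumor 1, and all 8 were above 0 in every tumor. Their part in these results was not tested.

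Carbonic anhydrases of the cell surface buffer the acid that glycolytic cells release. Car9 was at 5.44, 18.1 and 8.22 FPKM in vehicle and at 1.38, 11.7 and 9.29 FPKM in DATS tumors. DATS tumor 1 lay lowest, with the next tumor at 3.93 times its level, and rested on 40 recovered reads. Without it the difference turned from -0.62 ± 0.71 (SE, adjusted p = 0.894) to 0.13. Car12 was at 6.11, 8.5 and 1.15 FPKM in vehicle and at 0.582, 2.78 and 3.26 FPKM in DATS tumors, with 21 to 324 reads per tumor. The groups overlapped, with vehicle tumor 3 below DATS tumors 2 and 3 (difference -0.84 ± 0.65, SE, adjusted p = 0.86). The difference ranged from -1.48 (without vehicle tumor 3) to -0.39 (without DATS tumor 1).

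The remaining hypoxia-induced genes shared the high value in vehicle tumor 2. The secreted peptide adrenomedullin, Adm, was at 3.15, 27.3 and 7.92 FPKM in vehicle and at 6.14, 14.8 and 10.8 FPKM in DATS tumors. Vegfa, the main endothelial growth factor, had a narrower range, from 35.1 FPKM in DATS tumor 1 to 71.4 in vehicle tumor 2. Bnip3, a mitophagy receptor, reached 124 FPKM in vehicle tumor 2 and was at 36.9 to 59.2 in the others, whereas its relative Bnip3l varied little, between 64.8 and 94.9 FPKM. Ankrd37, an ankyrin repeat gene induced by HIF, ranged from 4.67 to 11.3 FPKM with the same tumors at the ends. Pdk1, a kinase that inhibits pyruvate dehydrogenase and so holds pyruvate back from mitochondria, ranged from 11.2 to 24.0 FPKM, again from DATS tumor 1 to vehicle tumor 2. Ndrg1, a stress-response gene, departed from this order: it was at 23.5, 117 and 44.3 FPKM in vehicle and at 106, 48.7 and 42.8 FPKM in DATS tumors, so DATS tumor 1 was its second highest.

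**Figure D3:**
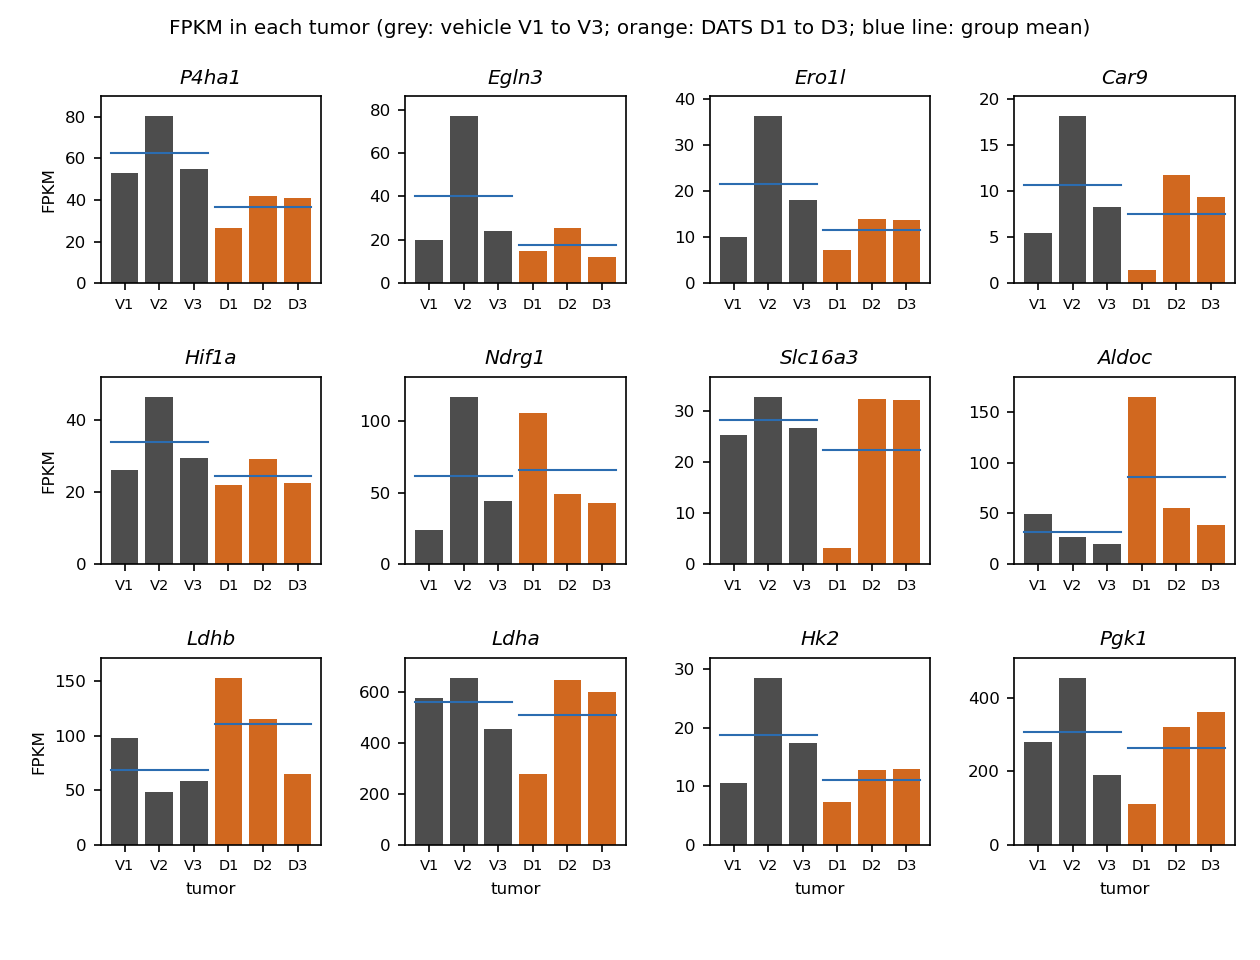
FPKM of 12 members in each tumor (bars, linear axes from 0), with vehicle tumors V1 to V3 in grey, DATS tumors D1 to D3 in orange and the group mean as a blue line. P4ha1 is the panel whose orange bars, 26.7 to 41.9 FPKM, all stay below the grey ones, and Slc16a3 stands at 3.20 FPKM in D1, where Aldoc reaches 165 FPKM.

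The glycolysis rows ranged from some of the most abundant transcripts of these tumors to some of the least. Gapdh, glyceraldehyde-3-phosphate dehydrogenase, ranked 60 of 13631 by mean FPKM, Eno1 (alpha enolase) 102, Aldoa (aldolase A) 109, Ldha 151 and the main Pkm row 176. Hk2 ranked 5949, Pfkfb3 7498, Tpi1 8047 and Eno2 13346. The 22 glycolysis rows held 1.01%, 1.05% and 0.755% of the FPKM total in vehicle tumors 1, 2 and 3 and 0.498%, 0.845% and 0.861% in DATS tumors 1, 2 and 3. DATS tumor 1 had the smallest share, and the other DATS tumors lay between the vehicle tumors. The hypoxia-induced rows held far less, from 0.0502% in DATS tumor 1 to 0.118% in vehicle tumor 2.

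Glucose enters through Slc2a1 (GLUT1), which was at 57.0, 127 and 83.8 FPKM in vehicle and at 39.8, 111 and 103 FPKM in DATS tumors. DATS tumor 1 was lowest and the other DATS tumors lay between vehicle tumors 3 and 2. Among the hexokinases, which trap glucose as its phosphate, Hk1 was nearly even, at 33.8 to 53.8 FPKM. Hk2, the isoform induced by HIF-1, was at 10.6, 28.5 and 17.3 FPKM in vehicle and at 7.25, 12.8 and 13.0 FPKM in DATS tumors. Its groups overlapped (difference -0.66 ± 0.38, SE, adjusted p = 0.842), and it ranged from -0.99 to -0.32 as each tumor was left out. The ratio of Hk1 to Hk2 was 4.13, 1.35 and 1.96 in vehicle and 5.63, 4.21 and 2.69 in DATS tumors, with vehicle tumor 1 inside the DATS range.

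Gpi, the isomerase of glucose-6-phosphate, was at 226 to 451 FPKM. Phosphofructokinase, the committed step, was expressed from 3 genes, of which Pfkl gave 47.8% to 49.3% of the summed FPKM in vehicle and 44.2% to 58.2% in DATS tumors. The platelet-type gene Pfkp gave 44.0% in vehicle tumor 2 and 43.7% in DATS tumor 1, and 25.7% to 31.3% elsewhere. The muscle-type gene Pfkm gave 23.6% in vehicle tumor 1, its highest share, where it was at 27.4 FPKM against 13.5 to 23.3 in the other tumors. Skeletal muscle markers summed to 1887 FPKM in that tumor, and their part in the Pfkm value was not tested. Pfkfb3, which makes the phosphofructokinase activator fructose-2,6-bisphosphate, was at 6.19 to 14.1 FPKM, lowest in DATS tumor 1 and highest in DATS tumor 2.

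From aldolase to pyruvate kinase most rows had DATS tumor 1 at or near the bottom. Pgk1, phosphoglycerate kinase, was at 279, 454 and 189 FPKM in vehicle and at 111, 321 and 361 in DATS tumors. Pgam1, phosphoglycerate mutase, had 293, 315 and 202 FPKM in vehicle and 123, 364 and 378 in DATS tumors. In both, DATS tumor 1 was lowest while DATS tumors 2 and 3 exceeded vehicle tumors 1 and 3. Aldoa ranged from 418 FPKM in DATS tumor 1 to 976 in vehicle tumor 2. Gapdh ranged from 918 to 1957 FPKM and Eno1 from 607 to 980, and the groups overlapped in each. Vehicle tumor 3 was the lowest tumor of 7 glycolysis rows (31.8%), Eno1 and Tpi1 among them, and of 17.6% of all genes tested. Markers of proliferating cells were also lowest there, at a sum of 36.7 FPKM against 58.6 to 136 in the other tumors with all 5 above 0 throughout, and their part was not tested.

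Pkm, pyruvate kinase of muscle and proliferating cells, makes the final pyruvate. The row ENSRNOG00000011329 was at 573, 616 and 393 FPKM in vehicle and at 267, 398 and 395 FPKM in DATS tumors. The groups overlapped by the small margin between vehicle tumor 3 and the higher DATS tumors (difference -0.57 ± 0.26, SE, unadjusted p = 0.0631, adjusted p = 0.819). The row ENSRNOG00000047276 was at 34.5, 14.5 and 7.29 FPKM in vehicle and at 7.83, 37.2 and 16.6 FPKM in DATS tumors. It did not follow the first row, with vehicle tumor 1 and DATS tumor 2 high, and had a difference of 0.13 ± 0.69 (SE, adjusted p = 0.985), which turned to -0.04 with equal FPKM totals. Tpi1, triose phosphate isomerase, stood at only 3.73 to 14.1 FPKM, far below its neighbours in the pathway. Reads shared with near-identical gene copies were not examined for Tpi1, Gapdh or Pkm, and the levels of these rows are uncertain for that reason.

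Aldolase and enolase also have isoforms best known from the nervous system. Aldoc, aldolase C, was at 49.6, 26.6 and 19.6 FPKM in vehicle and at 165, 55.7 and 38.4 FPKM in DATS tumors. DATS tumor 1 was 2.96 times the next tumor, and the groups overlapped at vehicle tumor 1. The difference of 1.23 ± 0.59 (SE, unadjusted p = 0.0775, adjusted p = 0.819) was the largest of all member rows, and it was 0.63 to 1.66 as each tumor was left out, positive each time. Eno2, gamma enolase, was at 0.101, 2.84 and 2.65 FPKM in vehicle and at 0.128, 0.0661 and 1.15 FPKM in DATS tumors. It rested on 2 to 4 reads in 3 of the tumors and on 36 to 94 in the others, and the groups overlapped (difference -0.86 ± 0.58, SE, adjusted p = 0.851).

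Lactate dehydrogenase is a tetramer of the Ldha product, which favours lactate formation, and the Ldhb product, which favours pyruvate. Ldha was at 577, 657 and 454 FPKM in vehicle and at 277, 649 and 601 FPKM in DATS tumors. Ldhb was at 97.4, 48.4 and 58.5 FPKM in vehicle and at 153, 115 and 64.9 FPKM in DATS tumors. DATS tumor 1 thus had the lowest Ldha and the highest Ldhb, and the Ldhb groups overlapped at vehicle tumor 1 (difference 0.68 ± 0.39, SE, adjusted p = 0.835). The Ldhb difference ranged from 0.40 (without DATS tumor 1) to 1.02 (without DATS tumor 3), and was 0.19 without both vehicle tumor 2 and DATS tumor 1. The ratio of Ldha to Ldhb was 5.92, 13.6 and 7.76 in vehicle and 1.81, 5.65 and 9.27 in DATS tumors, and that of Aldoa to Aldoc was 14.5, 36.7 and 30.5 and then 2.54, 13.8 and 23.5. Vehicle tumor 2 was highest and DATS tumor 1 lowest in both ratios.

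Lactate leaves cells mainly through Slc16a3 (MCT4), a HIF-1 target, while Slc16a1 (MCT1) carries it in both directions. Slc16a3 was at 25.2, 32.7 and 26.7 FPKM in vehicle and at 3.20, 32.2 and 32.0 FPKM in DATS tumors. In 5 tumors the level was nearly the same, and in DATS tumor 1 it was lower by a factor of 7.88 from the next tumor, on 96 recovered reads against 828 to 1034 elsewhere. The difference was -0.80 ± 0.79 (SE, adjusted p = 0.879) and was 0.19 without DATS tumor 1. Slc16a1 was at 13.7, 9.37 and 6.44 FPKM in vehicle and at 11.7, 6.43 and 5.03 FPKM in DATS tumors. The ratio of Slc16a3 to Slc16a1 was 0.273 in DATS tumor 1 and 1.84 to 6.36 in the others.

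**Figure D4:**
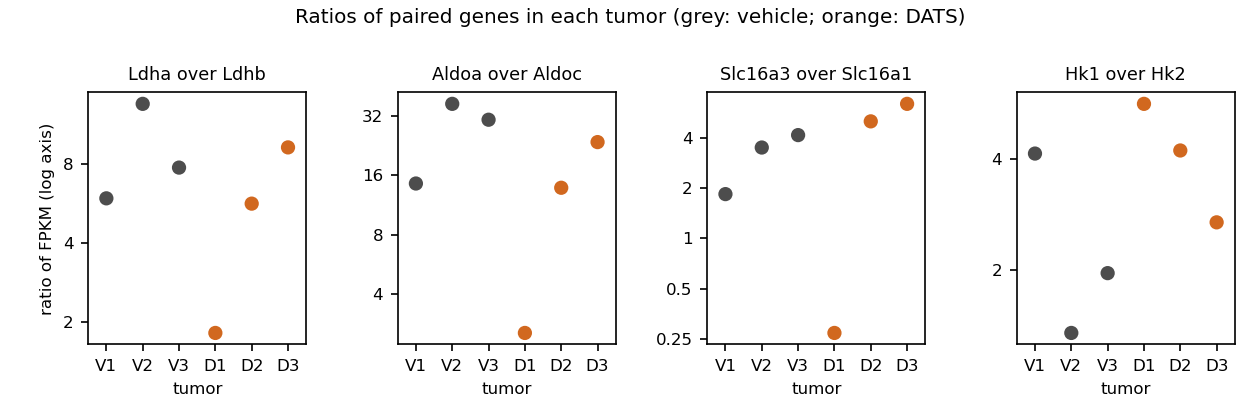
Ratio of FPKM between paired genes in each tumor (log axes; vehicle V1 to V3 in grey, DATS D1 to D3 in orange). D1 is lowest for Ldha over Ldhb (1.81), Aldoa over Aldoc (2.54) and Slc16a3 over Slc16a1 (0.273), and highest for Hk1 over Hk2 (5.63).

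Markers of T and NK cells, like those of fibroblasts, were highest in vehicle tumor 2 and lowest in DATS tumor 1, and those of other cell types were ordered otherwise. T and NK cell markers summed to 112, 466 and 124 FPKM in vehicle and to 99.0, 236 and 244 FPKM in DATS tumors. All 7 symbols were above 0 in every tumor, except for 1 of the rows of Gzmb. The 6 macrophage markers, all above 0 throughout, summed to 123, 328 and 237 FPKM in vehicle and to 165, 186 and 207 FPKM in DATS tumors, highest in vehicle tumor 2 and lowest in vehicle tumor 1. Endothelial markers (5 of 6 listed were found, all above 0) summed to 22.8, 61.7 and 56.5 FPKM in vehicle and to 32.0, 33.6 and 50.6 FPKM in DATS tumors, with the same tumors at the ends. Erythroid markers were highest in DATS tumor 3 and lowest in vehicle tumor 1, at 989 and 120 FPKM. The luminal markers ran the other way in vehicle tumor 2, where their sum of 2037 FPKM was the lowest. Myoepithelial markers summed to 953, 953 and 1860 FPKM in vehicle and to 2557, 2496 and 1122 FPKM in DATS tumors, highest in DATS tumor 1. Adipocyte markers summed to 57.7 FPKM in DATS tumor 1 and 72.6 in DATS tumor 3, against 8.58 to 20.3 in the other tumors, with Adipoq, Lep and Plin1 at 0 in at least 1 tumor. The part of these cell types in the member values was not tested.

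**Figure D5:**
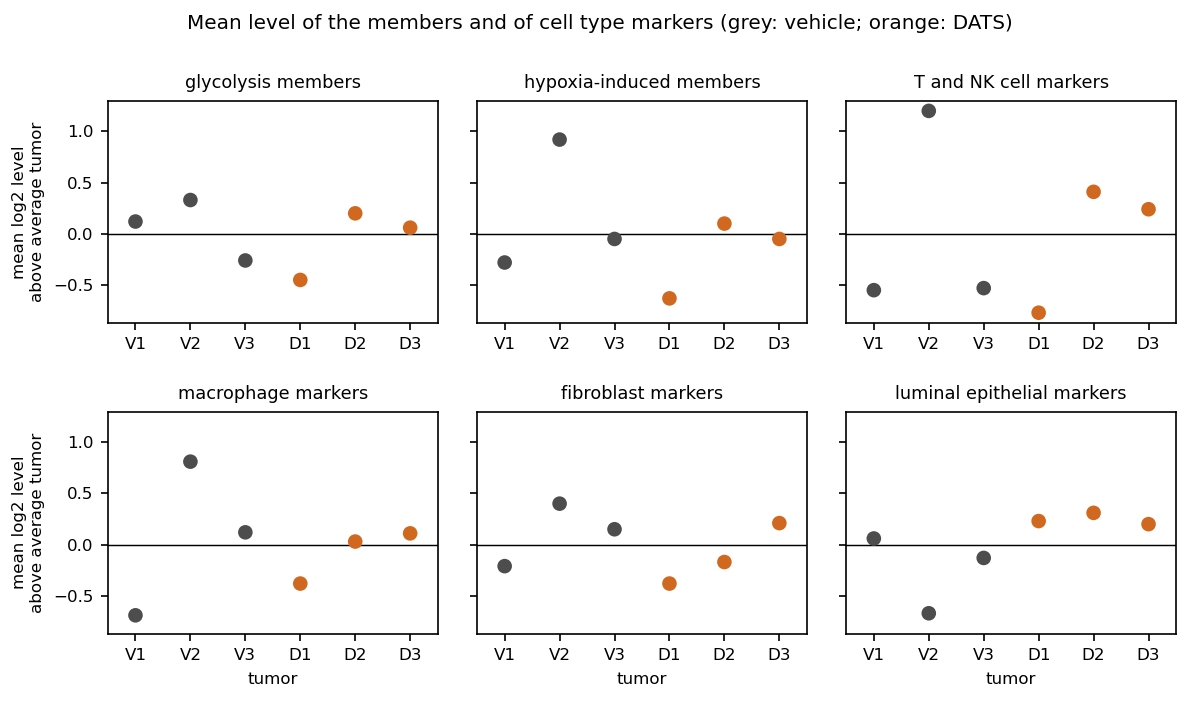
Mean log2(FPKM + 1) of the members and of 4 marker lists in each tumor, relative to the average tumor (points; vehicle V1 to V3 in grey, DATS D1 to D3 in orange). V2 is 0.92 above the average tumor for the hypoxia-induced members and 1.2 above it for T and NK cell markers, and D1 is 0.63 and 0.77 below.

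Further genes of the pathways were taken from lists made from general knowledge. Of 23 other genes of glucose metabolism tested, limma called 0 (2 at an unadjusted p under 0.05, against 5.85% of all genes), 13 lay lower in DATS tumors and the median log2 difference was -0.07. Of the 23, 5 were highest in vehicle tumor 2 and 4 lowest in DATS tumor 1. The largest differences were those of Pdk4, a pyruvate dehydrogenase kinase induced in fasting (1.0 ± 0.94, SE), the myeloid hexokinase Hk3 (-0.80 ± 0.48), the muscle mutase Pgam2 (-0.77 ± 0.61) and the insulin-regulated transporter Slc2a4 (-0.71 ± 0.32). Pdk4 was at 3.64, 1.21 and 3.12 FPKM in vehicle and at 15.1, 13.3 and 0.457 FPKM in DATS tumors, so DATS tumor 3 lay below the vehicle group. Its difference ranged from 0.39 (without DATS tumor 1) to 2.13 (without DATS tumor 3). Pgam2 was at 16.8 FPKM in vehicle tumor 1, the tumor with muscle transcripts, and its difference was -0.11 without that tumor. The part of muscle in the Pgam2 value was not tested. Pck2 (mitochondrial phosphoenolpyruvate carboxykinase) and Mpc2 (a mitochondrial pyruvate carrier subunit), named after their values were seen, had no overlap, with 45.5 to 62.7 against 24.8 to 39.4 FPKM and 144 to 175 against 122 to 135, DATS tumors being higher, where 6.72% of all genes tested had such a separation (adjusted p = 0.819 each).

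Of 35 other HIF pathway genes and known targets tested, limma called 0 (1 at an unadjusted p under 0.05, against 5.85% of all genes), 22 lay lower in DATS tumors and the median was -0.10. Of these 35, 15 were highest in vehicle tumor 2 (42.9%, against 21.0% of all genes), 12 were lowest in vehicle tumor 1 (34.3%, against 15.4%) and 11 in DATS tumor 1 (31.4%, against 16.8%). DATS tumor 1 was also the highest tumor for 7. Lox, a collagen cross-linking oxidase, was at 152 FPKM in vehicle tumor 2 and at 14.2 to 36.9 in the others. Its difference of -0.77 ± 0.87 (SE) was 0.24 without that tumor. Stc2, a secreted glycoprotein, reached 116 FPKM in DATS tumor 2 (difference 1.0 ± 1.18), and was at -0.06 without it. Ak4, a mitochondrial adenylate kinase, had no overlap, at 1.77, 2.12 and 2.36 FPKM in vehicle and 0.488, 0.795 and 1.54 in DATS tumors (-0.70 ± 0.28, adjusted p = 0.819). Egln2, the HIF prolyl hydroxylase that is not induced by hypoxia, was at 45.6 to 53.2 FPKM in vehicle and 54.0 to 68.0 FPKM in DATS tumors, also without overlap and named after its values were seen. These 2 of 35 genes without overlap compare with 12.2% of all genes tested.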

How the data were processed

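The 6 tumors were grouped by their treatment label, 3 vehicle and 3 DATS. The authors deposited 1 FPKM value per gene and tumor with rat Ensembl identifiers and symbols, per the file headers. Not given in the sources used here were aligner, counting, build, annotation and strand handling, so shared reads of overlapping or near-identical genes could not be examined.

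Whole reads were recovered from the FPKM steps for 100.0% of the 20891 genes above 0, within a relative tolerance of 1e-06, and a common divisor was put back for 763 genes. FPKM totals were 566304 to 656017 in vehicle and 662528 to 710096 in DATS tumors, so the groups did not overlap. The authors' scaling did not follow the recovered reads alone. Relative to vehicle tumor 1, a read counted 1.306 in DATS tumor 2 (14045172 reads) and 1.217 in vehicle tumor 3 (13531587 reads). The genes averaging at least 1 FPKM were tested with limma 3.58.1 in R 4.3.3 (lmFit, eBayes with an intensity trend, two-sided, Benjamini-Hochberg over 13631 genes, called at 0.05) on log2(FPKM + 1). The fit and the recovery were tested on simulated data. Python 3.11.15 with pandas 2.3.3 and numpy 2.4.6 made the tables, and matplotlib 3.10.9 the plots.

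Members and lists were chosen with earlier results of these data known. Differences are given for members without overlap between groups, the 6 largest of each group of members, both Pkm rows, Hif1a and the 4 largest of each further list, of which 1 is not reported here, and other members by their values. Promoter sequences are RefSeq's, build GRCr8. Among the listed symbols not found directly, Trp63 was matched through an older name as Tp63, Myh2 led to the row of Myh1, and Egln1, Hkdc1, Pdha1, Tigar, Myh4 and Pecam1 were not analysed here.

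Alternatives were a pseudocount of 0.1 FPKM, no filter, a filter at 5 FPKM, equal totals, quantile normalization, a replicate block, limma-voom on recovered reads, sample weights and each tumor left out. Leaving out vehicle tumor 2 and DATS tumor 1 together was added after seeing the data. It must raise the difference of any row highest in the first and lowest in the second.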

Additional observations from a re-analysis of the deposited data

How the results depend on the processing

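No gene, and so no member, was called under any of the 15 alternatives, and the lowest adjusted p of the 21 genes given with a difference was 0.354 (P4ha1 with sample weights). The genes at an unadjusted p under 0.05 numbered 797, 1663 with sample weights, 1222 without vehicle tumor 2 and DATS tumor 1, and 428 (without DATS tumor 2) to 1221 (without DATS tumor 1) with each tumor left out. Member rows at that level numbered 1. They numbered 0 without vehicle tumor 2 (538 of all genes), 7 without vehicle tumor 1 (1131), 4 without vehicle tumor 3 (657), 3 without DATS tumor 3 (594), 3 with equal totals (1034) and 3 with quantile normalization (688). Leaving out each tumor gave medians of -0.36 to 0.17 for glycolysis rows (8 to 18 lower) and of -0.60 to -0.14 for hypoxia-induced rows (9 to 14 lower). With sample weights 9 glycolysis rows lay lower, with a median of 0.08, and the hypoxia-induced median was -0.19. These weights were 3.523 for DATS tumor 2 and 0.5117 to 1.102 for the other tumors, so the weighted DATS level rested mostly on DATS tumor 2. Without vehicle tumor 2 and DATS tumor 1, 5 rows of each lay lower, with medians of 0.21 and 0.08, and Slc16a3 (0.30), Car12 (0.04), Ero1l (0.03), Car9 (0.57) and Lox (0.50) reversed. Equal totals moved the median of all genes by -0.16, and the medians were then -0.20 and -0.47 relative to it, with Pkm ENSRNOG00000047276 at -0.04. Leave-one-out ranges of the differences crossed 0 for Slc16a3 (-1.30 to 0.19), Car9 (-1.08 to 0.13), that Pkm row (-0.41 to 0.67), Stc2 (-0.06 to 1.98) and Lox (-1.42 to 0.24). The other 14 genes kept their sign under every alternative run. Leave-one-out ranges that were wide without crossing 0 included those of Eno2 (-1.45 to -0.55), Hk3 (-1.30 to -0.45) and Pgam2 (-1.36 to -0.11). That of Ero1l was -1.13 to -0.25, although Ero1l reversed without vehicle tumor 2 and DATS tumor 1. The causes were not tested.

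Deviations from the group mean correlated across genes at 0.152, -0.023 and -0.116 for same-numbered tumors. For differently numbered tumors the correlations were -0.231 to 0.269. The labels state no pairing, and deviations within groups of 3 tumors cannot decide whether the numbers pair them. With the replicate block limma called 0 genes, 594 had an unadjusted p under 0.05, and 7 members did, against 1 without the block.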
